A study of Mus musculus with 6 samples.

Results

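The cytosolic ribosomal protein genes are described here in mouse bone marrow progenitors that lost both c-Myc and N-Myc. Members were all genes whose annotated symbol has the form Rpl, Rps, Rplp or Rpsa with its number, taken from probe sets annotated with 1 symbol and represented by the brightest of them over the 6 arrays. This gave 49 of the 18193 genes measured, of which 26 encode proteins of the large subunit and 23 of the small subunit. The naming pattern and the choice of probe set used no difference between the groups. The family itself was chosen with earlier results of these data known. The arrays were Affymetrix mouse expression arrays of cells sorted as lineage-negative and positive for Sca1, CD150 and CD48, which the study calls committed progenitors, with 3 arrays of dKO cells and 3 of control cells. The dKO mice carried MxCre together with floxed c-myc and floxed N-myc (MxCre c-myc f2 N-myc f2). The control mice had these floxed genes but lacked MxCre (c-myc f2 N-myc f2). Mice of both groups were 8 weeks old, were on a mixed background and received 2 daily injections of pI-pC, an inducer of interferon, the last of them 3 days before the cells were taken. Each dKO array holds a pool of 3 mice and each control array a pool of 2 mice. The Mx promoter that drives Cre answers to interferon in many cell types, so deletion was not limited to the sorted cells, and an effect of MxCre itself cannot be told apart from loss of the 2 genes. For control 1 the tissue entry reads LT-HSCs, although its title and sort gate match those of the other arrays.

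A mammalian ribosome joins a small subunit, which holds the messenger RNA and reads its codons, to a large subunit, which forms the peptide bond and carries the tunnel through which the new protein leaves. Each subunit is ribosomal RNA dressed with its own set of ribosomal proteins, mostly present once per ribosome. MYC proteins are known to drive ribosome production by acting on RNA polymerase I, on assembly factors and on ribosomal protein genes. Most ribosomal protein messenger RNAs start with a run of pyrimidines, the terminal oligopyrimidine (TOP) tract, through which the mTOR pathway controls their translation.

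Values are the deposited log2 RMA values, which are relative to the other transcripts on an array. A member's level is the signal of its own probe set and does not rank transcripts against each other. Myc, measured by 1 probe set, stood at 7.99, 7.87 and 7.44 in dKO arrays, against 10.79, 10.95 and 10.47 in control arrays. The Mycn probe set that differed most stood at 4.42, 3.28 and 4.47 in dKO arrays, against 9.57, 8.93 and 9.48 in control arrays. Another Mycn probe set, the brightest, overlapped between the groups at 6.95, 7.09 and 7.97 in dKO arrays and 7.94, 8.41 and 8.14 in control arrays. The array medians over all probe sets lay between 5.90 and 5.94. The 4 progenitor markers Kit, Cd34, Slamf1 and Cd48 averaged 9.35 to 9.89 in dKO arrays and 9.28 to 9.53 in control arrays, and 0 of them were called.

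Short stretches of sequence show the start of transcription of members that the results below turn on. They come from RefSeq's promoter table for build GRCm38.p6, which held 43 of the 49 members, and each runs 15 bases to either side of an annotated start, 5′ to 3′ on the gene's strand. Capitals mark the unbroken run of C and T that covers the start, where it has at least 5 bases. The first 6 sequences are those of every member that was lower in dKO and has such a run. The last 2 are stalk proteins that were lower and have none over the annotated start.
Rpl14, chr9:120571502-120571531, + strand: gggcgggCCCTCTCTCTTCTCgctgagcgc
Rpl27a, chr7:109519180-109519209, + strand: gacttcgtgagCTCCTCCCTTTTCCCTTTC
Rps6, chr4:86857353-86857382, - strand: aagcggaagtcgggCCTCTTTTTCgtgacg
Rps9, chr7:3704026-3704055, + strand: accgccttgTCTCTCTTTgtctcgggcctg
Rps10, chr17:27635230-27635259, - strand: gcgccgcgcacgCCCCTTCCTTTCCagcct
Rps18, chr17:33955651-33955680, - strand: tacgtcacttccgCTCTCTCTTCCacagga
Rpl12, chr2:32961697-32961726, + strand: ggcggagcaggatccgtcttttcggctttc
Rplp0, chr5:115559452-115559481, + strand: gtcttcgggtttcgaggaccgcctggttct
Such a run covered the start in 13 of the 51 member windows, or 25.5%, against 10.1% of all 32851 windows. A run beside the annotated start was not counted, as in Rpl12, where C and T letters follow the start base. A window without capitals therefore does not show that the transcript lacks a TOP tract.

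Ribosomal protein transcripts were lower in dKO cells across both subunits. Of the 49 members 17 fell and 0 rose (limma across all genes, adjusted p under 0.05), a share of 34.7%, where 2.85% of all genes fell and 3.12% rose. The median log2 fold change of the members was -0.60 (dKO minus control), against 0.05 over all genes. In 40 members all 3 dKO arrays lay below all 3 control arrays, a pattern that 10.7% of all genes showed, and in 1 member all dKO arrays lay above, as in 12.7% of all genes. A negative log2 fold change was found in 43 of 49 members, or 87.8%, against 42.4% of all genes. In sorted cells measured in bulk, fewer cells of a type that is rich in these transcripts and less of the transcript per cell cannot be told apart.

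The number of called members depended on single arrays more than their direction did. It was 8 without dKO 1, 11 without dKO 2 and 19 without dKO 3, and it was 9, 7 and 6 without control 1, control 2 and control 3. The pools dKO 1 and control 1 held Xist signal, and the same 2 arrays were highest in their group on all of its probe sets. On the Xist probe set with the widest range dKO 1 had 11.32, dKO 2 4.44 and dKO 3 5.03, against 10.57 in control 1, 5.33 in control 2 and 4.78 in control 3. Without both of these pools 4 members were called lower, while 44 of 49 had a negative log2 fold change. With each single array left out that number ran from 43 to 46.

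**Figure D1:**
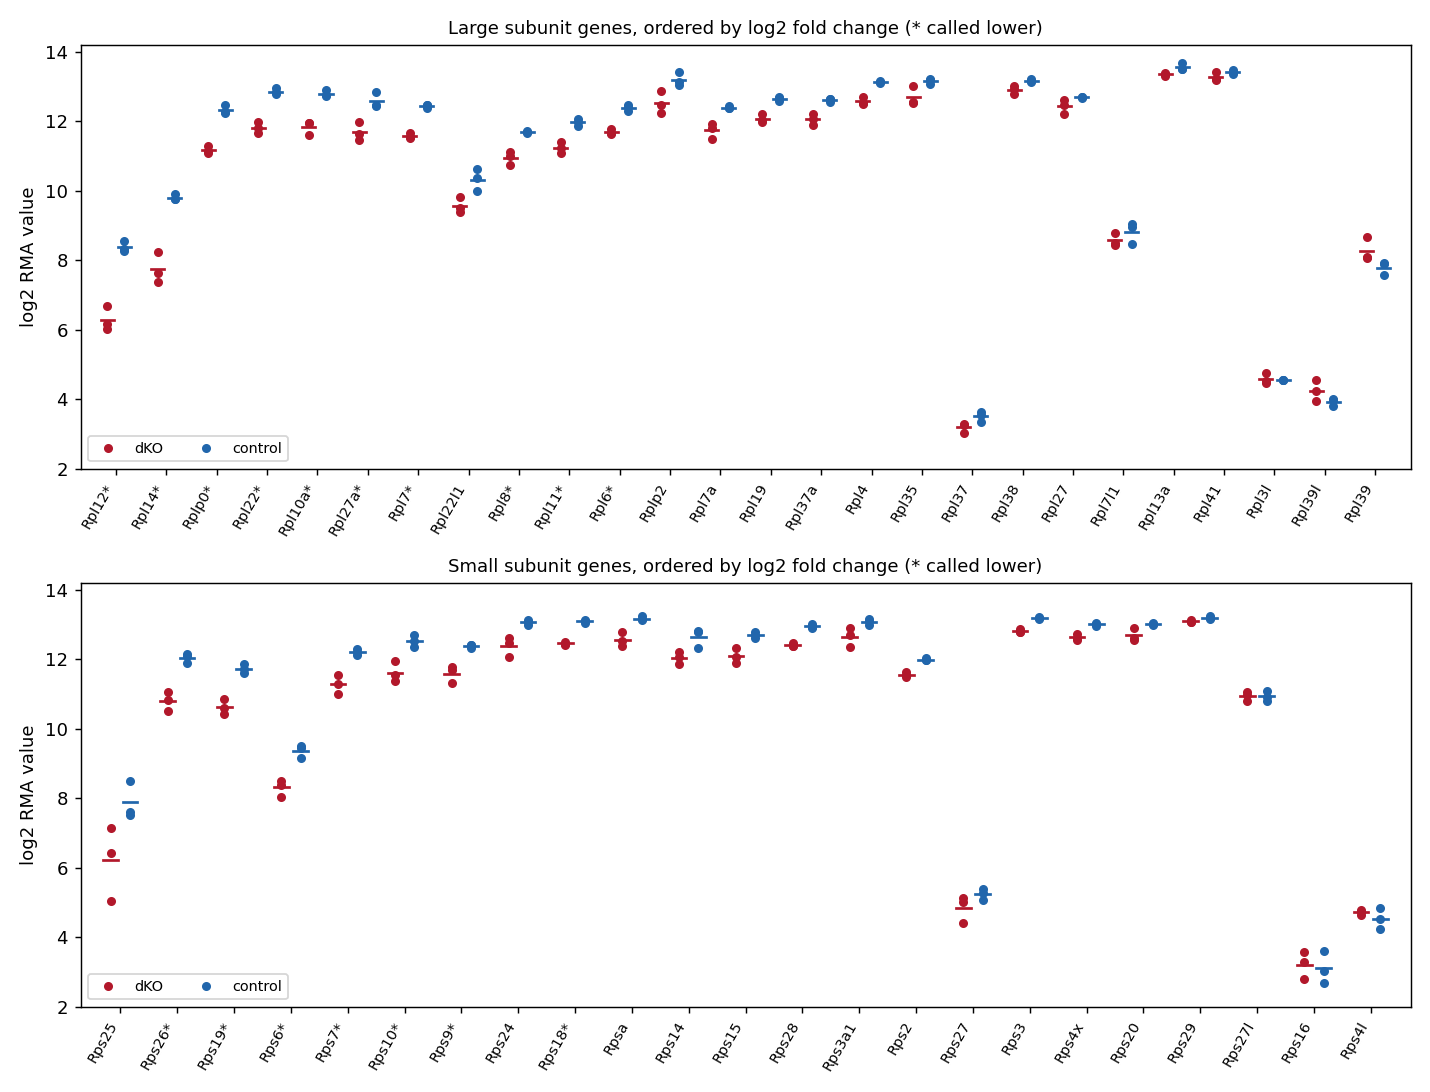
Log2 RMA values of the 26 large subunit genes (top) and the 23 small subunit genes (bottom), 1 point per array, with the mean of each group as a bar. The dKO points (red, left of each pair) lie below the control points (blue) in 40 of the 49 genes, and an asterisk marks the 17 called lower.

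Large and small subunit genes had similar shares of calls and similar medians. Of the 26 large subunit genes 10 fell and 0 rose, and of the 23 small subunit genes 7 fell and 0 rose, shares of 38.5% and 30.4%. The medians of their log2 fold changes were -0.61 for the large and -0.60 for the small subunit, a difference of -0.01. The median level of the large subunit genes was 11.49, 11.65 and 11.79 in dKO arrays, against 12.37, 12.47 and 12.46 in control arrays. For the small subunit genes it was 11.49, 11.67 and 11.94 in dKO arrays, against 12.34, 12.42 and 12.51 in control arrays. In both subunits every dKO median lay below every control median. The difference of -0.01 between the subunits' median log2 fold changes was not tested. It was -0.11 with each gene's probe sets averaged and -0.13 without probe sets of the _x_at and _s_at types, which may match several transcripts. The called large subunit genes numbered 5 without dKO 1, 7 without dKO 2, and 6, 5 and 4 without control 1, 2 and 3. The called small subunit genes numbered 3 without dKO 1, 4 without dKO 2, and 3, 2 and 2 without control 1, 2 and 3. Among fits with a single array left out, both counts were highest without dKO 3, where 19 members in all were called.

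**Figure D2:**
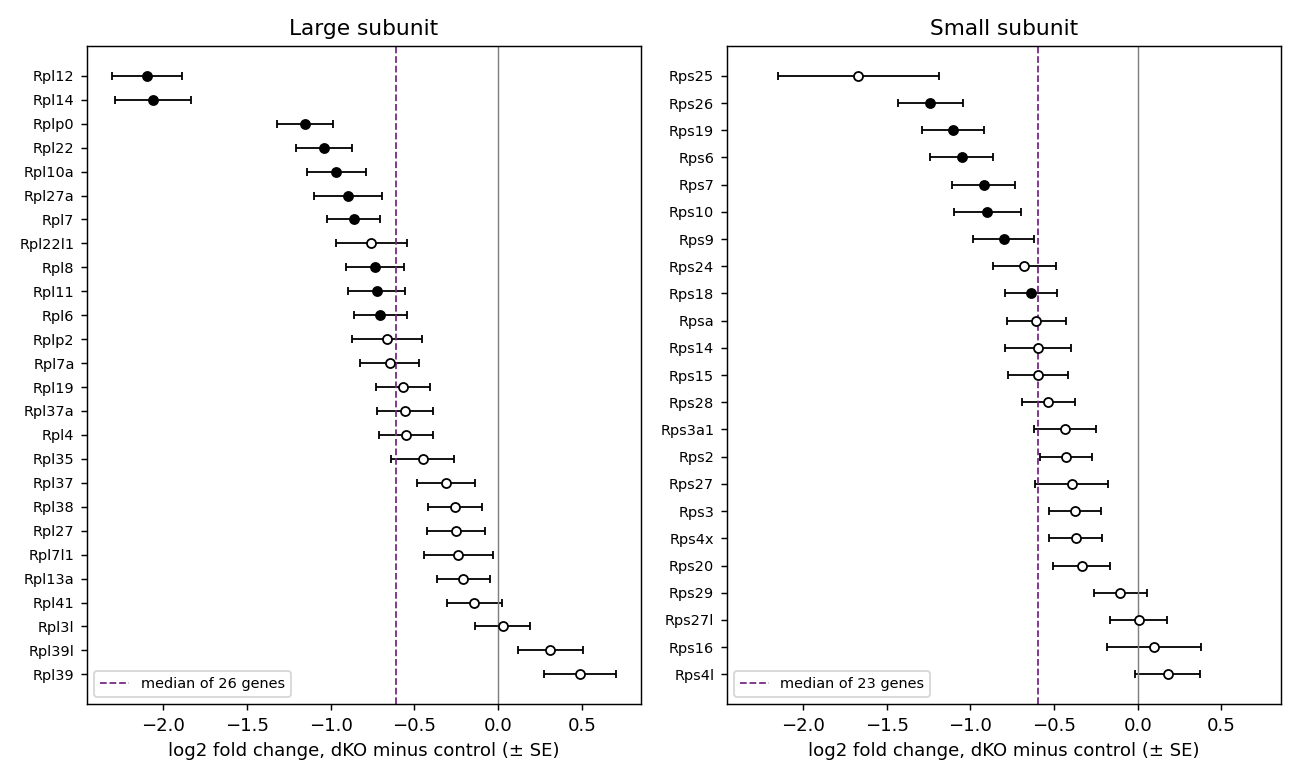
Each large and small subunit gene's log2 fold change, dKO minus control, with bars for the SE from limma and filled points for genes that passed the threshold. The dashed medians stand at -0.61 (large) and -0.60 (small), and the spread runs from -2.10 for Rpl12 to 0.49 for Rpl39.

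Of the 3 stalk genes measured from a list of 4, Rpl12 and Rplp0 fell and Rplp2 did not pass. The stalk is the flexible arm that recruits elongation factors. Rpl12, which forms its base on the ribosomal RNA, stood at 6.67, 6.16 and 6.03 in dKO arrays, against 8.55, 8.32 and 8.27 in control arrays. It fell by 2.10 ± 0.21 (SE) on the log2 scale, or 4.28-fold (adjusted p = 0.000729), the lowest log2 fold change of the 49 members. The only probe set of Rpl12 with 1 symbol had a mean level of 7.34, against a median of 12.06 over the members. Rplp0, the scaffold that binds the acidic stalk proteins, stood at 11.08, 11.15 and 11.29 in dKO arrays, against 12.23, 12.27 and 12.48 in control arrays. Rplp0 fell by 1.15 ± 0.17 (adjusted p = 0.00422). For both genes the gap between the groups exceeded the range within either group. Rplp2, an acidic stalk protein, had 12.23, 12.48 and 12.88 in dKO arrays, against 13.04, 13.41 and 13.13 in control arrays. It did not pass, at -0.66 ± 0.21 (adjusted p = 0.116), although its groups did not overlap, and it passed without dKO 3 (adjusted p = 0.043).

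Rpl14, a protein of the large subunit's surface, followed Rpl12 in size. It stood at 7.37, 8.22 and 7.62 in dKO arrays, against 9.76, 9.89 and 9.75 in control arrays, and fell by 2.06 ± 0.23, or 4.18-fold (adjusted p = 0.0012). Every dKO array lay more than 1 log2 unit below the lowest control array. The only probe set of Rpl14 with 1 symbol had a mean level of 8.77. Rpl22 and its paralog Rpl22l1 moved in the same direction. Rpl22, which mouse alpha-beta T cell development needs, stood at 11.67, 11.80 and 11.97 in dKO arrays, against 12.77, 12.94 and 12.84 in control arrays. It fell by 1.04 ± 0.17 (adjusted p = 0.00713). Its other probe sets gave -1.04 and -1.81 and were both called among all probe sets. Rpl22l1, which can take the place of Rpl22 in the ribosome, stood at 9.39, 9.49 and 9.81 in dKO arrays, against 9.99, 10.62 and 10.35 in control arrays. It gave -0.76 ± 0.21 and did not pass (adjusted p = 0.0763).

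Rpl10a, Rpl8 and Rpl11 fell by smaller amounts than Rpl12 and Rpl14. Rpl10a, part of the mobile arm beside the site where spent tRNA leaves, stood at 11.60, 11.93 and 11.93 in dKO arrays, against 12.73, 12.74 and 12.90 in control arrays. It fell by 0.97 ± 0.17 (adjusted p = 0.012). Rpl8, which reaches towards the peptidyl transferase centre, had 10.73, 11.004 and 11.10 in dKO arrays, against 11.67, 11.66 and 11.71 in control arrays, and fell by 0.74 ± 0.17 (adjusted p = 0.0366). Both genes separated the groups fully. Rpl11, which binds the 5S RNA together with Rpl5 and can restrain the p53 inhibitor Mdm2, had 11.08, 11.41 and 11.22 in dKO arrays, against 12.07, 11.85 and 11.97 in control arrays. Rpl11 fell by 0.73 ± 0.17 (adjusted p = 0.0393).

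The remaining large subunit genes that fell were Rpl27a, Rpl7 and Rpl6. Rpl27a had 11.46, 11.62 and 11.97 in dKO arrays, against 12.43, 12.84 and 12.47 in control arrays, and fell by 0.90 ± 0.20 (adjusted p = 0.033). Rpl7 had 11.50, 11.66 and 11.56 in dKO arrays, against 12.38, 12.47 and 12.45 in control arrays, and fell by 0.86 ± 0.16 (adjusted p = 0.0132). Rpl7 had among the narrowest groups, with SDs of 0.08 (dKO) and 0.05 (control). Rpl6 had 11.65, 11.63 and 11.77 in dKO arrays, against 12.29, 12.47 and 12.40 in control arrays, and fell by 0.70 ± 0.16 (adjusted p = 0.0344).

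Genes that line or surround the tunnel through which the new protein leaves were mixed. Of the 6 measured from a list of 10, only Rpl22 fell and 0 rose. Rpl4, Rpl19, Rpl35 and Rpl37 lay between -0.57 and -0.31 without passing. Rpl39, a small protein of the tunnel wall, was the exception in direction. It stood at 8.07, 8.08 and 8.67 in dKO arrays, against 7.91, 7.88 and 7.57 in control arrays, the only member with all dKO arrays above all control arrays. Its log2 fold change of 0.49 ± 0.21 did not pass (adjusted p = 0.264).

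In the small subunit Rps26, Rps19 and Rps6 had the lowest log2 fold changes that passed. Rps26, which sits where the messenger RNA leaves the subunit, stood at 10.51, 10.82 and 11.05 in dKO arrays, against 11.89, 12.14 and 12.07 in control arrays. It fell by 1.24 ± 0.19, or 2.36-fold (adjusted p = 0.00597). Rps19, a protein of the subunit's head whose human gene was the first linked to Diamond-Blackfan anaemia, stood at 10.41, 10.59 and 10.86 in dKO arrays, against 11.60, 11.87 and 11.70 in control arrays. Rps19 fell by 1.10 ± 0.18 (adjusted p = 0.00822). Both genes kept their groups apart by more than the range within a group. Rps6, the ribosomal target of S6 kinase, had 8.04, 8.39 and 8.50 in dKO arrays, against 9.16, 9.49 and 9.45 in control arrays, and fell by 1.05 ± 0.19 (adjusted p = 0.0124). The other probe set of Rps6, at a mean level of 4.23, gave -0.07, and with both averaged Rps6 gave -0.56 and did not pass (adjusted p = 0.287).

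The other small subunit genes that fell were Rps7, Rps10, Rps9 and Rps18. Rps7, needed for early steps of small subunit assembly, had 10.998, 11.29 and 11.54 in dKO arrays, against 12.11, 12.29 and 12.19 in control arrays. Its change was -0.92 ± 0.19 (adjusted p = 0.0218). Rps10, a protein of the head, had 11.36, 11.53 and 11.94 in dKO arrays, against 12.34, 12.68 and 12.51 in control arrays, a change of -0.90 ± 0.20 (adjusted p = 0.032). Its other 5 probe sets ran from -1.22 to -0.61. Rps9, near the entry of the messenger RNA, had 11.30, 11.67 and 11.77 in dKO arrays, against 12.32, 12.42 and 12.41 in control arrays, a change of -0.80 ± 0.18 (adjusted p = 0.0338). Rps18, a head protein that touches the large subunit, had 12.41, 12.49 and 12.44 in dKO arrays, against 13.05, 13.12 and 13.09 in control arrays. With the narrowest dKO group of the genes called, and SDs of 0.04 in both groups, Rps18 gave -0.64 ± 0.16 (adjusted p = 0.045). In all 4 genes every dKO array lay below every control array. Rps25 had the lowest log2 fold change of the subunit, at 6.42, 7.15 and 5.05 in dKO arrays against 7.61, 8.50 and 7.52 in control arrays. Its arrays varied most, with an SD of 1.07 in dKO, and it did not pass at -1.67 ± 0.48 (adjusted p = 0.0836). It passed without dKO 2 (adjusted p = 0.0403). The only probe set of Rps25 with 1 symbol had a mean level of 7.04. Whether the large changes of Rpl12, Rpl14 and Rps25 belong to these dimmer probe sets or to the genes was not tested.

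Leaving out any single array kept the calls of 6 of the 17 genes, namely Rpl12, Rpl14, Rplp0, Rpl22, Rps26 and Rps19, with adjusted p up to 0.0458. Rpl10a lost its call without control 3 (adjusted p = 0.0637), Rps6 without control 2 or control 3 (up to 0.0626), and Rpl7 without dKO 1, control 2 or control 3 (up to 0.0663). Rps7, Rps10, Rpl27a, Rps9, Rpl8 and Rpl6 kept theirs without dKO 3 and lost it without any other array, with adjusted p up to 0.14 for Rpl8. Rpl11 kept its call without dKO 2 and lost it otherwise (up to 0.142), and Rps18 lost its call in each case (up to 0.161). In all 17 genes the log2 fold change stayed negative in these fits, and the one nearest 0 was -0.62 for Rps18. With arrays centred on other genes of the upper quartile Rpl8, Rpl6 and Rps18 lost their calls (adjusted p = 0.055, 0.0535 and 0.0615). With probe sets averaged Rps6, Rpl27a and Rps18 lost theirs (adjusted p = 0.287, 0.0582 and 0.0559).

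Small subunit genes grouped by place gave similar counts. Of 10 measured head proteins from a list of 14, 3 fell and 0 rose, with a median log2 fold change of -0.57. Of 11 measured body and platform proteins from a list of 18, 4 fell and 0 rose, with a median of -0.61. Of 11 measured genes whose human counterparts are linked to Diamond-Blackfan anaemia, an inherited failure of red cell production, 5 fell and 0 rose, with a median of -0.68. These 5 were Rps26, Rps19, Rps7, Rps10 and Rpl11. Of all 49 members 34.7% fell, and of all genes 2.85%. Neither X-linked member passed. Rps4x had 12.61, 12.71 and 12.55 in dKO arrays, against 13.03, 12.94 and 13.01 in control arrays, a change of -0.37 without overlap, and Rpl39 gave 0.49.

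None of the paralogs with tissue-restricted or specialised roles passed the test, and their differences from their partners were not tested. Rps27l, known as a p53 target, had 10.96, 10.81 and 11.04 in dKO arrays, against 10.80, 11.09 and 10.90 in control arrays. The groups overlapped and the change was 0.01 ± 0.17 (adjusted p = 0.995), with its other probe sets at -0.07 and -0.08. Rps27l was the only member with a mean level of 9 or above and a log2 fold change that was not negative, and that sign turned with its probe sets averaged and under 2 other scalings (-0.0486 to -0.00482). Rpl7l1, a relative of Rpl7, had 8.44, 8.79 and 8.50 in dKO arrays, against 8.47, 9.03 and 8.94 in control arrays, and gave -0.24 ± 0.20 (adjusted p = 0.64). Rpl3l, the heart and skeletal muscle form of Rpl3, had 4.46, 4.53 and 4.75 in dKO arrays, against 4.56, 4.54 and 4.54 in control arrays, a change of 0.03 whose sign turned with quantile normalization (-0.0494). Rpl39l, a relative of Rpl39 known from testis, had 3.95, 4.54 and 4.23 in dKO arrays, against 3.99, 3.81 and 3.98 in control arrays, a change of 0.31. The groups overlapped for both.

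Rps4l, a relative of the X-linked Rps4x, had 4.77, 4.73 and 4.63 in dKO arrays, against 4.84, 4.51 and 4.24 in control arrays, and gave 0.18. Rps16, a head protein, had 3.27, 2.78 and 3.56 in dKO arrays, against 3.61, 3.03 and 2.67 in control arrays, and gave 0.10. Rps27 had 4.41, 5.12 and 5.0 in dKO arrays, against 5.26, 5.40 and 5.06 in control arrays, and gave -0.40. All 3 overlapped between the groups. Rps16, Rpl37 and Rps27 had mean levels of 3.16, 3.35 and 5.04, although their proteins are standard parts of the ribosome. These 3 are the members below a mean level of 6 whose symbol also stands, beside other symbols, on a probe set at 9 or above, so their values here describe a dim probe set and not the gene as a whole. None of the 6 members below that level passed the test.

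**Figure D3:**
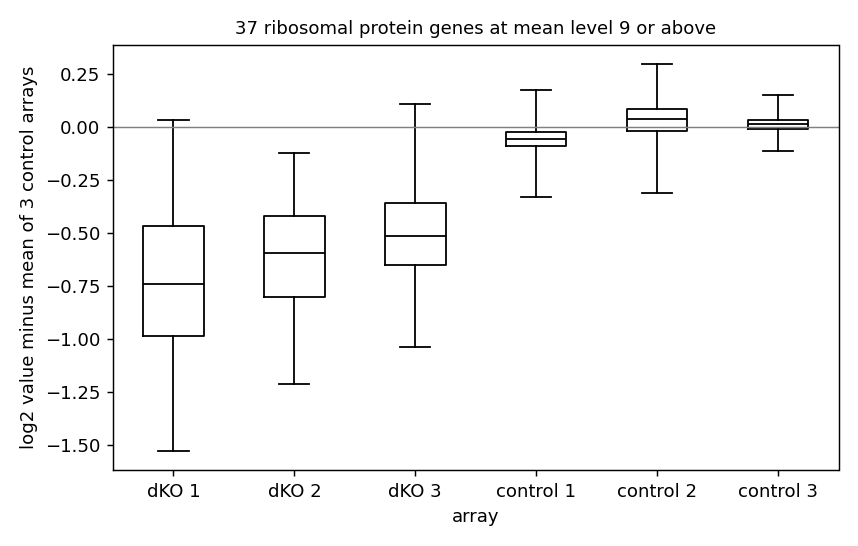
Difference of each array from the mean of the 3 control arrays (log2) over the 37 members with a mean level of 9 or above, with the box from the lower to the upper quartile, the line at the median and whiskers to the extremes. The dKO medians are -0.74, -0.59 and -0.51, and the control medians lie between -0.06 and 0.04.

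The shift was present in each dKO pool and differed in size between them. Over the 37 members with a mean level of 9 or above, the median difference from the control mean was -0.74 in dKO 1, -0.59 in dKO 2 and -0.51 in dKO 3. In dKO 1 36 of these members lay below their lowest control array, in dKO 2 36 and in dKO 3 35. The pool dKO 1 was the lowest of the 3 dKO arrays for 28 of the 37 members, and dKO 3 was the highest for 28. The control arrays differed less, with medians of -0.06, 0.04 and 0.02 against their own mean. Of these 37 members 14 fell, where 3.43% of the 2797 other genes at 9 or above fell. A total of 36 had a negative log2 fold change, all 19 in the large and 17 of 18 in the small subunit.

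Among the bright members, changes were closer to 0 at the brightest probe sets. All 27 members with a mean level of 12 or above had a negative log2 fold change with a median of -0.57, and 7 of them fell. The 8 members between 11 and 12 had a median of -0.86, and 7 of them fell. Other genes of the same brightness did not have such medians. Of the 95 other genes at 12 or above 2.11% fell, with a median of 0.09, and the 335 other genes between 11 and 12 had a median of 0.05. Among members at 9 or above the log2 fold change was closer to 0 in brighter ones, with Pearson's r = 0.49 and Spearman's rho = 0.64 across 37 genes. Over all 49 members, dim ones included, r was -0.16 and rho 0.10. These genes share the arrays and are not independent, and the bounds were chosen after the levels were seen. The highest value on any array lay between 13.7 and 13.8, close to the brightest members, and the part of this upper end in the small changes was not tested.

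Several probe sets of 1 gene allow the same view within a gene. Rpl13a, which its brightest probe set puts at 13.35, 13.29 and 13.38 in dKO arrays, against 13.50, 13.66 and 13.49 in control arrays, did not pass at -0.21 ± 0.16 (adjusted p = 0.585). Its other 3 probe sets, with mean levels of 11.42, 11.41 and 10.32, gave -0.93, -0.83 and -1.33, all called lower among all probe sets (adjusted p = 0.0243, 0.0393 and 0.0041). On the dimmest of them Rpl13a had 9.66, 9.74 and 9.56 in dKO arrays, against 11.03, 11.01 and 10.90 in control arrays. In 8 of the 17 members with several probe sets at 9 or above, every other such probe set had a more negative log2 fold change than the brightest. The rest had another such probe set closer to 0, as in Rpl7, with -0.86 on its brightest and -0.80 and -0.69 on the others. With so few probe sets per gene this order can also arise without a link to level, which was not tested. Averaged over its probe sets Rpl13a gave -0.82 and was called lower (adjusted p = 0.00914).

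**Figure D4:**
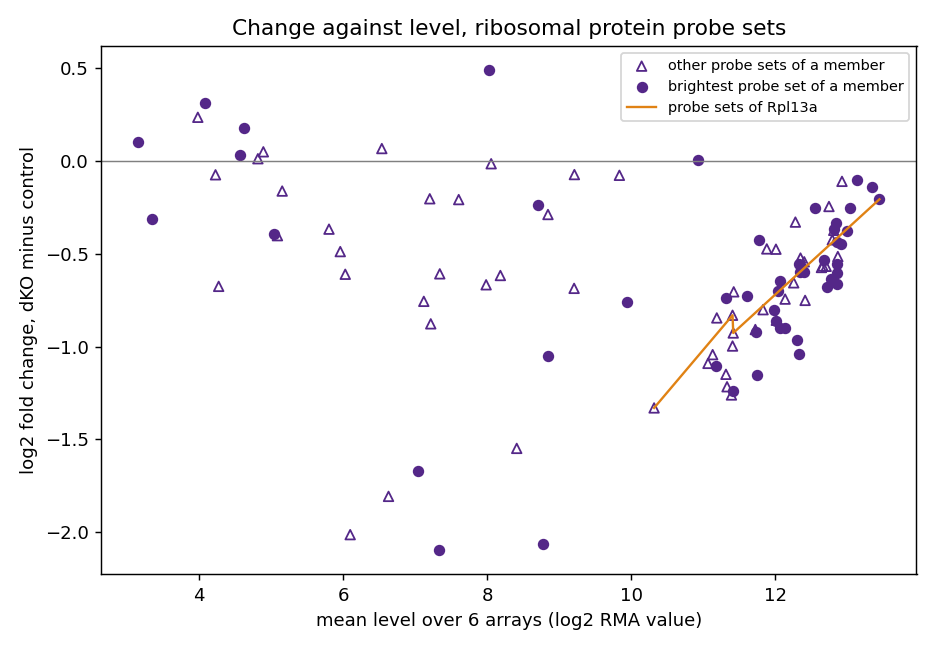
Log2 fold change (dKO minus control) against mean level for the 105 probe sets of the 49 members, with the brightest of each gene filled and the 4 probe sets of Rpl13a joined by a line. Above a level of 9, 69 of 70 probe sets lie below 0 and approach it at the bright end, where Rpl13a gives -0.21.

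Other members whose probe sets differed by over 1 log2 unit were Rps3, Rps18 and Rps24. Rps3, which lies at the messenger RNA entry and also has a role in DNA repair, gave -0.38 on its brightest probe set and -1.55 on a dimmer one, where it had 7.69, 8.08 and 7.13 in dKO arrays, against 9.35, 8.94 and 9.26 in control arrays. Its dimmest, at a mean level of 3.98, gave 0.23. Rps18 ran from -1.26 to 0.01. Rps24, on its brightest probe set, had 12.07, 12.45 and 12.62 in dKO arrays, against 12.98, 13.11 and 13.08 in control arrays (-0.68), and its probe sets ran from -2.01 to 0.05, and both genes had the value nearest 0 on dim probe sets, with mean levels of 4.81 and 4.89. Over all 105 probe sets of the members 24 were called lower and 0 higher, where 1.78% of all probe sets were lower and 1.83% higher. Rpl13a, Rpl37a, Rps15, Rps24 and Rps3 had a probe set called in this fit without being called among genes. Rpl27a, Rps9, Rpl8, Rpl11 and Rpl6, called among genes, had none called here, with adjusted p from 0.0553 to 0.0627 on their brightest probe sets. The number of members with a call was 17 in both fits.

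Rpl41 (-0.14) and Rps29 (-0.10), both from bright probe sets, did not pass either. Rpl41, which encodes the shortest ribosomal protein, had 13.19, 13.20 and 13.41 in dKO arrays, against 13.34, 13.42 and 13.47 in control arrays, and its groups overlapped. Its other probe sets gave -0.11, -0.62 and -0.67. Rps29 had 13.07, 13.07 and 13.13 in dKO arrays, against 13.18, 13.24 and 13.15 in control arrays, with no overlap. Its other probe sets gave -0.37 and -0.57, also with no overlap. None of these other probe sets of Rpl41 and Rps29 was called among all probe sets. The remaining members that did not pass, Rpl7a, Rpsa, Rps14, Rps15, Rpl37a, Rps28, Rps3a1, Rps2, Rps4x, Rps20, Rpl38 and Rpl27, lay between -0.65 and -0.25, and the groups did not overlap in any of these.

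Other transcripts listed as known TOP messenger RNAs moved in the same direction. Their start sequences were not examined here. From a list of 17 messenger RNAs of translation factors and related proteins, 16 were measured. Of these, 6 fell and 0 rose, a share of 37.5%, where 2.85% of all genes fell and 3.12% rose. The median log2 fold change was -0.57, and all 16 values were negative, against 42.4% of all genes. Eef1b2, which reloads elongation factor 1 with GTP, had 11.71, 11.84 and 11.55 in dKO arrays, against 12.70, 12.65 and 12.59 in control arrays, and fell by 0.95 ± 0.17 (adjusted p = 0.0105). Eef2, which moves the ribosome along the messenger RNA, had 11.17, 11.22 and 11.38 in dKO arrays, against 12.06, 12.10 and 12.19 in control arrays, and fell by 0.86 ± 0.16 (adjusted p = 0.0147). The poly(A)-binding protein gene Pabpc1 (-0.84) and the initiation factor genes Eif4b (-0.86), Eif3f (-0.81) and Eif3h (-0.70) also fell. Eef1a1 (-0.21), Tpt1 (-0.08) and Eef1d (-0.07) did not pass. The number called was 1 without dKO 1, control 2 or control 3, 3 without dKO 2 or control 1, and 0 without dKO 1 and control 1 together. It was 13 with limma-trend, 10 with array weights and 0 at a threshold of 0.01.

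Chaperones and late assembly factors of ribosomal proteins had a median log2 fold change closer to 0. Of 18 measured from a list of 20, 1 fell and 0 rose, a share of 5.56%, where 2.85% of all genes fell. The median was -0.10, a difference from the other lists that was not tested. The called gene was Grwd1, a histone and ribosome assembly chaperone, with 7.28, 7.003 and 7.27 in dKO arrays, against 8.16, 8.34 and 8.24 in control arrays (-1.06 ± 0.17, adjusted p = 0.00665). Tsr1 (-0.76), Heatr3 (-0.69) and Rrs1 (-0.55) did not pass, and Sbds, needed to release a factor from the large subunit, gave 0.35. The number called was 2 without dKO 1, and 0 without _x_at and _s_at probe sets, to which that of Grwd1 belongs. Fau, which encodes a small subunit protein fused to a ubiquitin-like domain and lies outside the naming pattern, gave -0.45 ± 0.21 and did not pass.

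The MYC-binding letters CACGTG, called the E-box, were rare in the members' promoters. They were found in 5 of 51 windows, each from 250 bases before to 50 bases after an annotated start, or 9.8%, against 7.15% of all windows. Both strands were searched, on which these letters read the same. The windows belonged to Rpl14, Rps19, Rpl13a and Rpl19, the last with 1 E-box in 2 overlapping windows. The E-box of Rps19 lies 120 bases upstream of its last annotated start and downstream of its other annotated starts. Capitals mark the E-box in 30 bases around it, GRCm38.p6, on the gene's strand.
Rpl14, chr9:120571337-120571366, + strand: ccaagctcactgCACGTGtctgaggagaag
Rps19, chr7:24884781-24884810, + strand: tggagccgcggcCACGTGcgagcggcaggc
Rpl13a, chr7:45128928-45128957, - strand: cgctccgaaaccCACGTGacatcccgcccc
Rpl19, chr11:98026679-98026708, + strand: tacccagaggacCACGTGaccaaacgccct
Of these genes Rpl14 and Rps19 fell, and 13 of the 39 other members with a window fell too. The median log2 fold change was -0.84 with an E-box and -0.60 without. The ETS letters CCGGAAG, searched on both strands, were found in 41.2% of member windows and 8.86% of all windows. Members with them had a median log2 fold change of -0.61 and members without them -0.58. The YY1 letters AAGATGGC were found in 7.84% of member windows and 2.75% of all windows. Members with the YY1 letters had a median of -0.32, of which 1 of 4 fell, and members without them -0.61. Members with a C and T run over the start had a median of -0.66, of which 6 of 13 fell, and members without it -0.55, of which 9 of 30 fell. A match describes letters in a window and not a bound site.

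Markers of other cell types differed between the groups as well. Of 9 measured T and NK cell markers 6 rose, of 8 megakaryocyte markers 5 rose, of 5 mast cell and basophil markers 4 rose and of 4 erythroid markers 1 rose. Over all genes 3.12% rose and 2.85% fell. The erythroid marker called was Alas2 (adjusted p = 0.0423), while Epor, Klf1 and Hba-a1 did not pass. Of 7 B lymphoid markers 2 fell and of 7 granulocyte and monocyte markers 3 fell. The B lymphoid markers that fell were Dntt (-4.99) and Rag1 (-2.28). Igll1 (-0.73), Vpreb1 (-0.67), Ebf1 (-0.21), Cd79b (0.26) and Cd79a (0.40) did not pass, so the list did not move as a whole. The mean level of the T and NK list ran from 8.18 to 8.35 in dKO arrays and from 6.48 to 7.13 in control arrays. It ran from 9.24 to 9.55 in dKO arrays and from 7.59 to 7.70 in control arrays for megakaryocyte markers, and from 9.01 to 9.97 in dKO arrays and from 7.54 to 7.69 in control arrays for mast cell and basophil markers. For erythroid markers it ran from 6.83 to 7.41 in dKO arrays and from 6.17 to 6.40 in control arrays. The granulocyte and monocyte list ran from 7.22 to 8.46 in dKO arrays and from 9.23 to 10.50 in control arrays, and the B lymphoid list from 5.98 to 6.43 in dKO arrays and from 7.05 to 7.74 in control arrays. Their part in the ribosomal protein values was not tested.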

How the data were processed

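Sorted progenitors were measured on 6 arrays in 2 groups named by the sample titles. Per the labels' protocols, Trizol RNA went through 2 rounds of Nugen amplification before biotin labelling. The deposited log2 values come from RMA, which the submitters' processing notes name, a method that corrects background, quantile-normalizes and summarizes probes. Its version is not given in the sources used here. Of 45101 probe sets 64 were controls, 34945 had 1 symbol in the platform annotation, 932 several and 9160 none. Genes were named from probe sets with 1 symbol only.

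limma 3.58.1 in R 4.3.3 was fitted over all 18193 genes (lmFit and eBayes, with a term for group alone). Two-sided p-values were Benjamini-Hochberg adjusted over these genes, with a threshold of 0.05. A second fit over all 45037 probe sets served to compare probe sets of a gene. SEs are those of the fit, SDs are over 3 arrays, and fold changes are dKO over control. The steps were tested on simulated data. The number of arrays limits the precision, and p-values measure the spread between pools of mice.

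Deviations of arrays with equal replicate numbers correlated at 0.06, -0.0005 and 0.02, which cannot exclude a shared litter, day or batch. The labels name no pairing, and the pools numbered 1 held Xist signal in both groups. No 2 arrays were alike beyond r = 0.988 over genes. The members, gene lists and tests were chosen with earlier results of these data known, and no list was tested as a set. Genes given by array were, in each subunit, up to 8 called members with the lowest log2 fold changes and the 4 highest log2 fold changes, the stalk, the 5S RNA binding proteins, paralog pairs, and members whose probe sets differed by over 1. Other members were named once their values were known. The planned ranking of genes by likeness to Rplp0 over the 6 arrays was left out, because the arrays form 2 separate groups. Alternatives covered the choice of probe set, symbols, a filter on dim genes, 3 scalings, limma-trend, weights per array, a replicate block, the threshold and leaving out each array. Leaving out dKO 1 and control 1 together and keeping only members at a mean level of 9 or above were chosen after seeing the data. Figures were drawn with matplotlib 3.10.9.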

Additional observations from a re-analysis of the deposited data

How the results depend on the processing

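All members that fell kept a negative log2 fold change under every alternative run. The number of members called lower (17; 10 large, 7 small) was 32 with limma-trend (17 and 15) and 29 with array weights (16 and 13), where array weights gave 1697 calls over all genes, against 1086 without. At a threshold of 0.01 it was 6 (4 and 2; 437 genes in all) and at 0.1 it was 27, with 12 in the small subunit. With the replicate block it was 12, with 6 in the large subunit, and 999 genes in all, although the labels name no pairing. With single arrays left out it ran from 6 to 19, from 4 to 10 in the large and from 2 to 9 in the small subunit, and from 572 to 1081 over all genes. Without dKO 1 and control 1 together it was 4 (3 and 1; 578 genes in all). Averaging probe sets made the large minus small median -0.11. Leaving out _x_at and _s_at probe sets made it -0.13, with the large subunit median at -0.73. The cause of these moves was not tested, apart from fewer arrays or another threshold where the setting itself has them. None of the 3 other scalings moved the median of all genes by over 0.1 or a member count by over 1.5 times.

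Sign changes occurred only in members near 0 that did not pass. Rps27l gave -0.0486 with averaged probe sets, -0.00482 with arrays centred on the median, -0.0327 with quantile normalization and -0.0696 without dKO 1 and control 1. Rpl3l gave -0.0494 with quantile normalization and -0.0364 with array weights. With single arrays left out Rps27l ran from -0.0568 to 0.0847, Rpl3l from -0.0544 to 0.0906 and Rps16 from -0.117 to 0.354. Depth has no counterpart here, and signal close to background limits the 6 members below a mean level of 6.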

Other observations

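Probe sets that carry a ribosomal protein symbol beside other symbols were left out of the comparison because they name no single gene. There were 110 of them, holding 28 ribosomal protein symbols that are not among the 49 members. Of these probe sets 107 had a negative log2 fold change, 20 were called lower and 1 higher, where 1.78% of all probe sets were lower and 1.83% higher. Their median log2 fold change was -0.55, against 0.03 over all probe sets. All 82 with a mean level of 9 or above had a negative log2 fold change. The 1 called higher had a mean level of 7.49 and a log2 fold change of 1.74.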
